A study of Mus musculus with 2 samples.

Results

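Interferons are cytokines that bind cell-surface receptors and act through Jak kinases and Stat transcription factors. Type I interferons mainly switch on genes with an interferon-stimulated response element (ISRE), and interferon gamma, made by T and NK cells, mainly those with a gamma-activated site (GAS). The genes they induce block viruses, attract T cells and restrain them. Described here are 9 such genes of the 32285 in the gene table, all 9 found by symbol: the transcription factors Irf1 and Irf7, the effectors Isg15, Ifit3, Gbp2 and Ifi202b, the chemokines Cxcl9 and Cxcl10, and Cd274, which encodes the checkpoint ligand PD-L1. They were chosen by name and followed by cell class within each library.

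The libraries are single-cell 3′ RNA libraries of 2 chimaeric mouse livers, 1 from the embryonic stage labelled E18.5 and 1 labelled P180 (180 days after birth). At both stages the hosts lacked Hhex, a homeobox gene needed for liver development, and had been given tetraploid (4N) embryonic stem cells with a tdTomato reporter as blastocysts. Both libraries carry the same treatment label, so no diploid or untreated liver is among the groups. Host and donor cells were not told apart here, and neither stage has a replicate. Each comparison below is therefore between 2 libraries, with intervals that cover counting error only, and has no p-value.

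After filtering, 4543 cells under the E18.5 label (median 4726 UMIs, the molecules counted) and 8847 under the P180 label (median 5906) were kept, and 11 barcodes occurred in both sets. Classes are called X-like because they rest on marker transcripts, and the interferon genes were left out of the clustering. Class makeup ran against the stage labels. The library labelled E18.5 held 1308 B cell-like, 472 T cell-like and 111 plasma cell-like cells and only 24 erythroid-like cells, and the library labelled P180 held 6894 erythroid-like cells. Stage is thus not asserted, and the libraries are named by their labels throughout. Levels were compared between libraries in the 6 classes that reached 50 cells in each. No hepatocyte-like class was found in either library under the main filters. Without the limit on the mitochondrial share, 107 cells labelled P180 were hepatocyte-like. Under the main filters the 14 hepatocyte markers were highest in cholangiocyte-like cells labelled E18.5 (7895 CPM summed, 2 at 0). CPM are a gene's UMIs per 1000000 UMIs of the class. Fewer cells of a responding kind and less RNA per cell cannot be told apart within a class.

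The promoters of these genes differ in the sites they carry, so the windows with a match are shown first. All 9 genes matched the RefSeq promoter table (GRCm38.p6), and the 250 bases before each RefSeq start were searched on both strands. The ISRE core, here a pair of GAAA half-sites with any 2 bases between them, occurred in 4 of the 9 genes, against 3.46% of 27025 genes in the table, and the GAS core TTCNNNGAA occurred in 2 of the 9, against 8.13%. No window of a member held both motifs. Among 96 other genes of the interferon pathway, 45.8% had the ISRE core and 26.0% the GAS core. A match describes letters only. The windows below run 5′ to 3′ along the gene's strand with the matched bases in capitals, and those in Gbp2 and Ifit3 match the ISRE core on the opposite strand. Isg15 (chr4:156200856-156200915, minus strand) has 3 overlapping ISRE matches, Ifit3 (chr19:34583365-34583424, plus strand) has 2, and Gbp2 (chr3:142620579-142620638, plus strand) and Cxcl10 (chr5:92349068-92349127, minus strand) have 1 each. Irf1 (chr11:53769898-53769957, plus strand) and Ifi202b (chr1:173982959-173983018, minus strand) have a GAS match.
Isg15: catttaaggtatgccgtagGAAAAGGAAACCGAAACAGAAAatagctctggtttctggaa
Ifit3: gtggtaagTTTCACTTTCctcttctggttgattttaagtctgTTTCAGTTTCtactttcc
Gbp2: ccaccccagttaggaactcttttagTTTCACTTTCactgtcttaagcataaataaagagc
Cxcl10: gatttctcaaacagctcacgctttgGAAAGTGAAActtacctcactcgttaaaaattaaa
Irf1: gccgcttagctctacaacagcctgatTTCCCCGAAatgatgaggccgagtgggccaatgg
Ifi202b: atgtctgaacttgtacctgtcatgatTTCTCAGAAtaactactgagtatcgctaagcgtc
Irf7, Cxcl9 and Cd274 had neither core in this window. The Gbp2 window reaches past base 142620602, where GENCODE places the start of that gene, so this match is upstream of the RefSeq start only.

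In the GENCODE M21 annotation of mm10, the genes lie on 7 chromosomes: Irf1 on chromosome 11 (53770014 to 53778374), Irf7 on 7 (141262706 to 141266481), Isg15 on 4 (156199424 to 156200818), Gbp2 on 3 (142620602 to 142638008) and Ifi202b on 1 (173962568 to 173982744). Ifit3 (34583531 to 34588731) and Cd274 (29367455 to 29388095) are both on chromosome 19. Cxcl9 (92321347 to 92328079) and Cxcl10 (92346638 to 92348889) are neighbours on chromosome 5, with 18558 bases between them and the same strand. On the opposite strand, Irf1 overlaps Gm17334, Irf7 overlaps Phrf1, Gbp2 overlaps Mir6381, Cxcl10 overlaps Art3 and Cd274 overlaps AC119228.1. Ifit3 has the close copy Ifit3b, and Gbp2 and Ifi202b belong to families of similar genes, so reads may be split or lost among copies. No member overlaps another gene on its own strand.

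The map of levels by class shows where each gene was found. In the library labelled E18.5 most members were found across myeloid, lymphoid and endothelial classes, with Cxcl9 and Gbp2 highest in monocyte-like cells and Isg15 highest in neutrophil-like cells. In the library labelled P180 the highest classes were mesenchymal-like for Irf1 and Ifit3, dendritic-like for Irf7, Gbp2, Cxcl9 and Ifi202b, monocyte-like for Cxcl10 and B cell-like for Cd274. Isg15 was highest there in erythroid-like cells. Levels are UMIs summed over a class, with exact Poisson 95% intervals, and are compared between classes and libraries but not between genes.

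**Figure D1:**
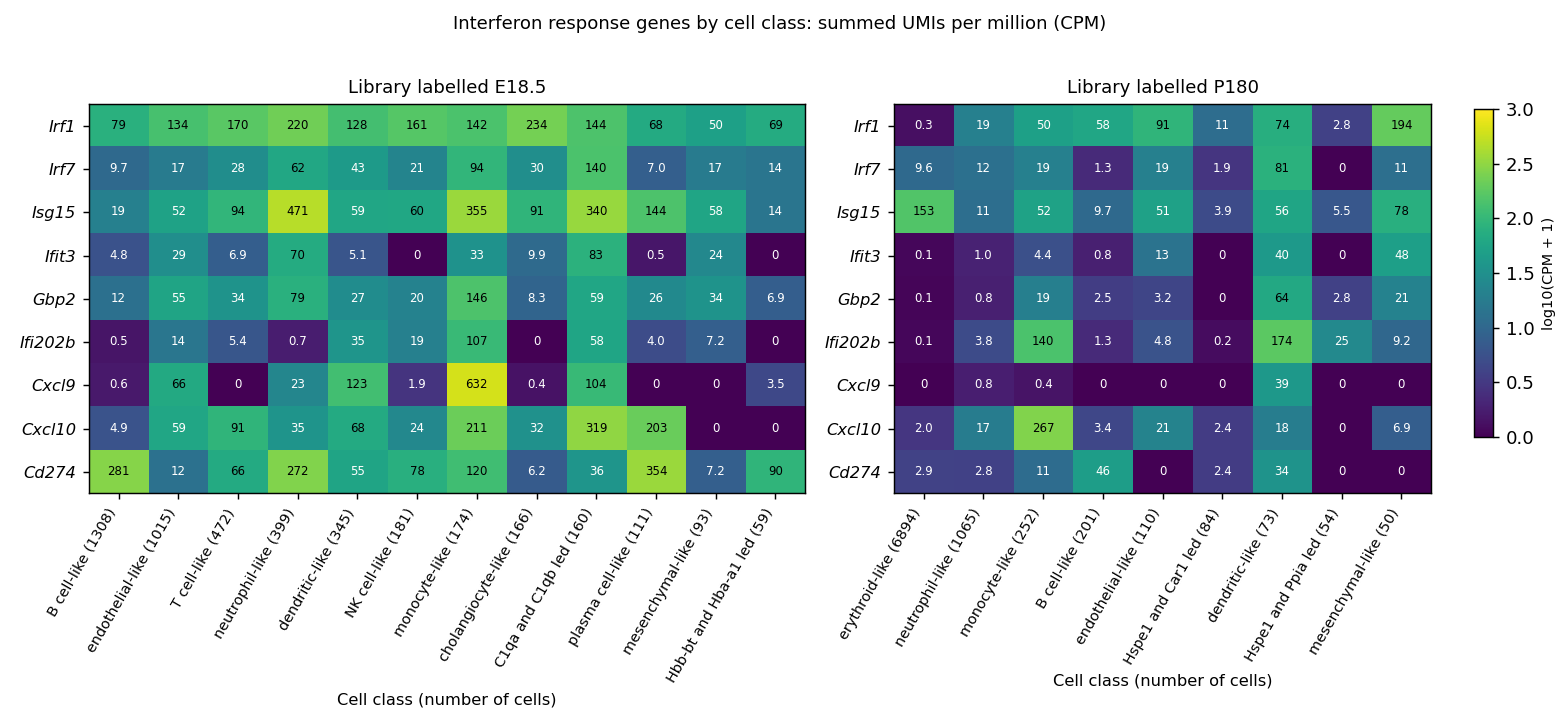
Level of each of the 9 genes in every class of at least 50 cells, in CPM (printed in each field) and as a colour on a log10(CPM + 1) scale. Rows are genes, columns are classes with their number of cells, and the panels are the libraries; Cxcl9 reaches 632 CPM in monocyte-like cells labelled E18.5 and 0.43 CPM in those labelled P180.

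Irf1, the factor that interferon gamma induces most directly and that itself switches on Gbp and chemokine genes, was found in every class of the library labelled E18.5. It ranged there from 50.3 CPM in mesenchymal-like cells to 234 CPM (215 to 255) in cholangiocyte-like cells, where 111 of 166 cells had a UMI. The next class, neutrophil-like at 220 CPM (196 to 247), did not differ from it beyond the intervals. In the library labelled P180 Irf1 was highest in mesenchymal-like cells at 194 CPM (155 to 241) and lowest at 0.320 CPM in erythroid-like cells, with 14 UMIs over 6894 cells. The erythroid-like share with a UMI, 0.203% at a median of 5241.5 UMIs per cell, is the level seen for Irf1 in a class with little of it.

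Irf7, the factor that amplifies type I interferon production, was mainly myeloid. It was highest in the cluster led by C1qa and C1qb, complement genes typical of macrophages, at 140 CPM (120 to 162), with a UMI in 50.6% of its 160 cells. Monocyte-like cells labelled E18.5 followed at 94.4 CPM (79.2 to 112) and neutrophil-like cells at 61.7 CPM (49.2 to 76.4). In the library labelled P180 dendritic-like cells were highest at 80.6 CPM (67.6 to 95.4), above every other class of that library. Plasma cell-like cells, a class with strong Cd274, had 7.02 CPM. The C1qa and C1qb led cells are named by their leading genes only. Their 12 macrophage markers summed to 11987 CPM (0 at 0) and their 13 dendritic markers to 23682 CPM (0 at 0). Their 13 monocyte markers summed to 10799 CPM (1 at 0). In dendritic-like cells labelled E18.5 the macrophage and dendritic sums were 66.8 and 35090 CPM.

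Isg15 encodes a ubiquitin-like protein that is attached to other proteins after type I interferon. It was highest in neutrophil-like cells labelled E18.5, at 471 CPM (435 to 508) with a UMI in 51.1% of cells. Monocyte-like cells (355 CPM, 324 to 387) and the C1qa and C1qb led cells (340 CPM, 309 to 374) came next and did not differ from each other. B cell-like cells of the same library had 19.2 CPM and a UMI in 5.81% of cells at a median of 4619.5 UMIs, deeper than the neutrophil-like median of 2866. After each cell was thinned to 1000 UMIs the shares were 31.4% of neutrophil-like and 1.61% of B cell-like cells.

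Ifit3, which encodes an antiviral protein that binds viral RNA in a complex with its relatives, stood at 83.5 CPM (68.2 to 101) in C1qa and C1qb led cells and 69.7 CPM (56.4 to 85.3) in neutrophil-like cells labelled E18.5, which overlap. Monocyte-like cells came next at 32.6 CPM and overlap endothelial-like cells at 29.0 CPM, and in the library labelled P180 mesenchymal-like cells were highest at 48.1 CPM (29.7 to 73.5). NK cell-like cells had 0 UMIs over 181 cells, which allows up to 2.78 CPM and a share of up to 1.66%. Gbp2, a GTPase that attacks the vacuoles of intracellular microbes, was highest in monocyte-like cells labelled E18.5 at 146 CPM (127 to 167) and next in neutrophil-like cells at 79.3 CPM (65.0 to 95.7), which overlap the C1qa and C1qb led cells (59.4 CPM, 46.6 to 74.6). Endothelial-like cells of that library had 55.2 CPM (48.1 to 63.0).

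Ifi202b encodes a DNA-binding protein of the p200 family and is known to differ in expression between inbred mouse strains; the labels give no strain. It was highest in dendritic-like cells labelled P180 at 174 CPM (155 to 195), then in monocyte-like cells labelled P180 at 140 CPM (131 to 149) and labelled E18.5 at 107 CPM (90.6 to 125). Neutrophil-like cells labelled E18.5 had 1 UMI over 399 cells, and B cell-like cells 3 UMIs over 1308 cells.

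Cxcl9 and Cxcl10 are chemokines that draw T and NK cells through the receptor Cxcr3. Cxcl9 was highest in monocyte-like cells labelled E18.5 at 632 CPM (592 to 674), from 25 of 174 cells, and 3 of these cells held 50% of the UMIs. Dendritic-like cells followed at 123 CPM (113 to 132), C1qa and C1qb led cells at 104 CPM (87.2 to 124, overlapping) and endothelial-like cells at 65.6 CPM (57.8 to 74.1). In the C1qa and C1qb led cells 94 of 130 Cxcl9 UMIs came from 1 cell, and the level was 29.2 CPM without it. In the dendritic-like cells 203 of 644 came from 1 cell, and the level was 84.3 CPM without that cell. T cell-like cells had 0 UMIs over 472 cells, which allows up to 1.15 CPM and a share of cells with a UMI of up to 0.636% at a median of 5277.5 UMIs. That limit is on detected molecules, not on cells that express the gene.

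Cxcl10 had a wider range of sources. C1qa and C1qb led cells were highest at 319 CPM (288 to 352), ahead of monocyte-like cells at 211 CPM (188 to 236) and plasma cell-like cells at 203 CPM (183 to 223), which overlap. T cell-like cells stood at 91.3 CPM (80.1 to 104). Few cells held 50% of the Cxcl10 UMIs. They were 5 of 160 C1qa and C1qb led, 6 of 174 monocyte-like, 8 of 111 plasma cell-like and 5 of 472 T cell-like cells. Without the top cell of each class the levels were 275, 185, 177 and 79.4 CPM in that order. In plasma cell-like cells 33 of 111 cells had a Cxcl10 UMI (29.7%) at a median of 17297 UMIs, against 1.15% of B cell-like cells. After thinning to 1000 UMIs the shares were 11.7% and 0.307%. Of 12 macrophage markers 6 were at 0 in the plasma cell-like cells, and their sum was 18.6 CPM against 421 CPM in the monocyte-like cells. The 13 monocyte markers summed to 1031 CPM, with 1 at 0, against 23405 CPM in the monocyte-like cells; their part in the Cxcl10 level was not tested. Cxcl9 stood at 0 UMIs in the plasma cell-like cells, which allows up to 1.50 CPM.

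Cd274 encodes PD-L1, which restrains T cells through the receptor Pdcd1. In the library labelled E18.5 it was highest in the B lineage and in neutrophil-like cells. Plasma cell-like cells had 354 CPM (328 to 381), with a UMI in 84 of 111 cells. B cell-like cells had 281 CPM (268 to 294) and neutrophil-like cells 272 CPM (245 to 302), which did not differ beyond the intervals. Cholangiocyte-like cells of the same library had 6.20 CPM and endothelial-like cells 12.2 CPM. Within B cell-like cells the clusters ranged from 237 CPM to 486 CPM.

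Between libraries, 54 pairs of a gene and a class could be formed, and 39 reached the minimum of 50 UMIs in at least 1 library. Of these, 23 were lower by 2-fold or more in the library labelled P180, 5 were at least 2-fold higher and 11 lay between. Over all measured genes, 8.60% to 18.7% were lower and 1.95% to 35.8% higher by that margin, depending on the class. A gene that reached the minimum in only 1 library had to be high there, so these counts describe the measured pairs and not all 54. Without the cell with most UMIs of the gene in each library, 24 were lower and 3 higher. The plot of ratios shows neutrophil- and monocyte-like cells shifted to the left and dendritic-like cells around 0. Median-of-ratios scaling in place of CPM subtracts a shift from every log2 ratio of a class. The shift was 0.28 in B cell-like, 0.20 in monocyte-like, 0.13 in endothelial-like and -0.16 in neutrophil-like cells. This scaling left both counts at 23 and 5. Cxcl10 in neutrophil-like cells was then no longer among the lower pairs, and Isg15 in B cell-like cells was among them.

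**Figure D2:**
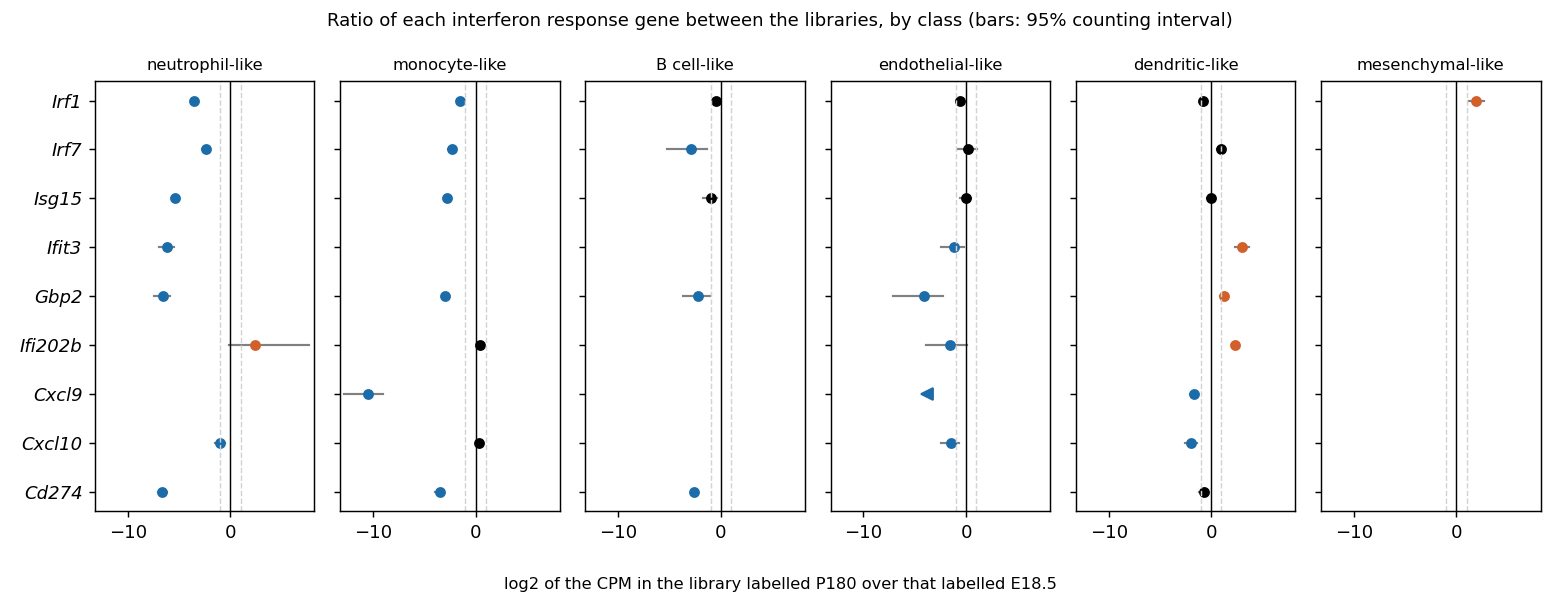
Log2 ratio of the CPM in the library labelled P180 over that labelled E18.5 for each gene (rows) in the 6 classes compared (panels), with 95% counting intervals; blue points are at least 2-fold lower, orange at least 2-fold higher and black in between, dashed lines mark 2-fold, and the triangle is a bound against 3 counts. Pairs under 50 UMIs in both libraries are not drawn, and 7 of the 8 genes drawn for neutrophil-like cells lie to the left.

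In neutrophil-like cells 7 of 8 measured members were lower by 2-fold or more in the library labelled P180, where 18.1% of 9596 genes were. Isg15 stood at 471 CPM in the library labelled E18.5 and at 11.0 CPM (9.61 to 12.5) in that labelled P180, a log2 ratio of -5.42 (-5.64 to -5.20). Gbp2 was 79.3 CPM and 0.812 CPM (log2 -6.61), and Ifit3 69.7 CPM and 0.955 CPM (log2 -6.19). For these genes the intervals of the libraries do not come near each other. Cd274 was 272 CPM and 2.77 CPM (log2 -6.62, -7.04 to -6.22), and Irf1 220 CPM and 19.0 CPM (log2 -3.53). Irf7 (log2 -2.40) and Cxcl10 (34.5 CPM and 17.0 CPM, log2 -1.02) differed least of the 7. The call for Cxcl10 sits at the threshold and rests on few cells: 22 of its 47 UMIs under the E18.5 label (46.8%) came from 1 cell, and the log2 ratio was -0.34 without the top cell of each library and -0.85 to -0.98 under 5 other alternatives. Ifi202b was the member counted as higher, where 35.8% of all genes were, but it rests on 1 UMI against 80, with a log2 ratio of 2.38 and an interval from -0.14 to 7.70, and it was -0.28 at a mitochondrial limit of 10% and 0.70 without its top cells.

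Different clusters made up this class in the 2 libraries. With the E18.5 label 379 of the 399 cells formed a cluster led by S100a9, and under the P180 label the clusters were led by Ngp (418 and 364 cells), by Elane (140 cells) and by Retnlg (143 cells). Ngp and Elane encode granule proteins of developing neutrophils and Retnlg a product of mature ones. The Retnlg-led cluster had the highest levels of the class in that library: Isg15 at 52.6 CPM, Irf1 at 49.7 CPM, Cd274 at 27.3 CPM, Ifit3 at 13.6 CPM and Gbp2 at 7.80 CPM. Taken alone against all neutrophil-like cells labelled E18.5, a comparison chosen after the data were seen, it gave log2 ratios of -3.16 for Isg15, -2.15 for Irf1, -3.32 for Cd274, -2.35 for Ifit3 and -3.35 for Gbp2. Irf7 then lay between, at -0.98.

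**Figure D3:**
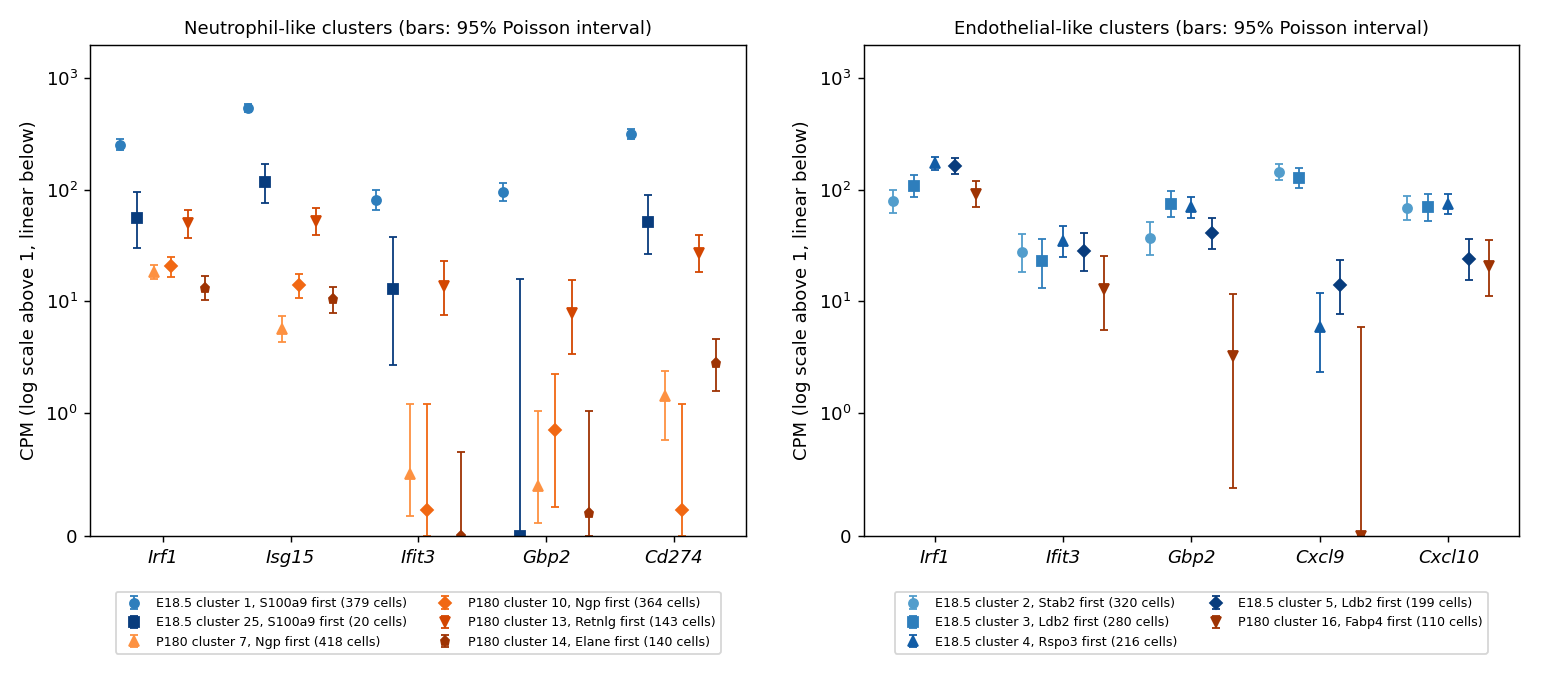
Levels in CPM (log scale above 1, linear below) of 5 genes in each neutrophil-like cluster (left) and 5 in each endothelial-like cluster (right), blue for the library labelled E18.5 and orange for that labelled P180, with 95% Poisson intervals. Among neutrophil-like clusters labelled P180 the Retnlg-led one is highest for the 5 genes drawn, and among endothelial-like clusters Cxcl9 is above 100 CPM in 2 of 4 labelled E18.5.

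In monocyte-like cells 6 of 8 measured members were lower by 2-fold or more in the library labelled P180, where 9.04% of 9123 genes were, and none was higher, where 29.7% were. Cxcl9 was 632 CPM (911 UMIs over 174 cells) under the E18.5 label and 0.426 CPM (3 UMIs over 252 cells) under the P180 label, a log2 ratio of -10.53 (-12.82 to -8.98). Cxcl10, its neighbour on the chromosome, was 211 CPM and 267 CPM (255 to 279), a log2 ratio of 0.34 (0.16 to 0.52), and was found in 19.5% and 30.2% of cells. After thinning, the shares for Cxcl10 were 11.5% and 10.7%. Cxcl10 thus lay between, close to the median log2 ratio of 0.44 over all genes of the class. Of the 34 monocyte-like cells labelled E18.5 with a Cxcl10 UMI, 13 also had one of Cxcl9.

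Among the other members in monocyte-like cells, Cd274 was 120 CPM and 10.5 CPM (log2 -3.51), Gbp2 146 CPM and 18.9 CPM (log2 -2.95) and Isg15 355 CPM and 52.4 CPM (log2 -2.76). Irf7 (94.4 CPM and 19.3 CPM, log2 -2.29) and Irf1 (142 CPM and 50.1 CPM, log2 -1.50) were lower as well. Ifi202b was 107 CPM and 140 CPM (log2 0.39) and lay between. The cells labelled P180 also carried neutrophil markers at a sum of 11325 CPM, with 0 of 15 at 0, against 332 CPM and 3 at 0 under the E18.5 label; their part in the ratios was not tested. That sum exceeds the 9734 CPM of the 13 monocyte markers in the same cells, which were 23405 CPM under the E18.5 label. Neutrophil-like cells labelled P180 had 11304.5 CPM of the same monocyte markers, and 244104 CPM of the neutrophil markers. The monocyte marker sum alone thus does not set the monocyte-like cells labelled P180 apart from them.

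The monocyte-like ratios depend on where the clusters were divided. Each library had 1 cluster of this class, of 174 and 252 cells. At a clustering resolution of 2 the class kept 117 and 149 cells, with 58 cells led by Lyz2 and Cxcl2 (E18.5 label) and 80 led by Mpo and Prtn3 (P180 label) in clusters of their own. The log2 ratios of Gbp2 and Cd274 were then both -0.06, which ends their calls, and Cxcl10 was higher at 1.99. Cxcl9 (-4.58), Irf7 (-1.44), Isg15 (-1.19) and Irf1 (-1.16) were still lower by 2-fold or more, by smaller margins. At a resolution of 0.5 the 252 cells labelled P180 did not pass as monocyte-like, and the class gave no ratio.

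Genes induced by tissue dissociation moved with these differences, and this was not tested as a cause. Of 15 such genes, 11 were lower by 2-fold or more under the P180 label in neutrophil-like and 11 in monocyte-like cells, and their sum was 22943 and 4470 CPM in neutrophil-like and 33001 and 11405 CPM in monocyte-like cells. In B cell-like cells 13 of 15 were lower, with sums of 13722 and 3409 CPM. Haemoglobin UMIs, a sign of free RNA from red cells, were 0.714% and 1.61% of all UMIs in neutrophil-like and 0.0513% and 1.19% in monocyte-like cells. The median mitochondrial share was 11.9% and 0.715% in neutrophil-like cells and 6.16% and 1.55% in monocyte-like cells.

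In endothelial-like cells Gbp2 and the chemokine genes were lower under the P180 label, while Isg15, Irf7 and Irf1 lay between. Of 8 measured members, 5 were lower by 2-fold or more under the P180 label, where 10.1% of 8227 genes were, and none was higher, where 4.91% were. Gbp2 was 55.2 CPM and 3.20 CPM (2 UMIs), a log2 ratio of -4.11 (-7.16 to -2.24). Cxcl9 was 65.6 CPM (258 UMIs over 1015 cells) and 0 UMIs over 110 cells, which allows up to 4.81 CPM, so it was at least 13.6-fold lower. Cxcl10 was 59.2 CPM and 20.8 CPM (log2 -1.51), and Ifit3 29.0 CPM and 12.8 CPM (log2 -1.18). Ifi202b was 14.2 CPM and 4.81 CPM (3 UMIs, log2 -1.57, -3.89 to 0.05), and was -0.62 to -0.91, no longer 2-fold lower, under 3 of the alternatives. In contrast Isg15 was 51.9 CPM and 51.3 CPM (log2 -0.02, -0.60 to 0.53), Irf7 16.5 CPM and 19.2 CPM, and Irf1 134 CPM and 91.3 CPM. Over the alternatives Isg15 ran from -0.62 without its top cells to 0.92 at a mitochondrial limit of 10%, and Irf1 was -1.01 at the same limit.

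Within the endothelial-like cells labelled E18.5, Cxcl9 separated the clusters. It was 144 CPM in the cluster led by Stab2, a scavenger receptor of liver sinusoids, and 128 CPM in the larger of the clusters led by Ldb2. It was 5.79 CPM in the cluster led by Rspo3, a Wnt enhancer known from central veins, and 14.0 CPM in a further cluster led by Ldb2 and Mecom. Gbp2 did not follow this order, since the Rspo3-led cluster had 69.5 CPM and the Stab2-led one 36.8 CPM. All 110 cells labelled P180 formed 1 cluster, in which Stab2 was also among the 10 leading genes. The 12 macrophage markers summed to 793 CPM (1 at 0) and 873 CPM (5 at 0) in this class under the E18.5 and the P180 label. The 15 stress genes summed to 2850 and 1628 CPM, and 5 of the 15 were lower by that margin. The 15 erythroid markers summed to 2633 CPM (8 at 0) and 44422 CPM (0 at 0), the 15 neutrophil markers to 97.4 CPM (2 at 0) and 908 CPM (3 at 0), and haemoglobin was 0.262% and 4.36% of UMIs. The part of these genes in the ratios was not tested.

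In B cell-like cells 3 of 5 measured members were lower by 2-fold or more under the P180 label, where 18.2% of 8642 genes were, and none was higher, where 23.4% were. Cd274 was 281 CPM and 45.8 CPM (37.6 to 55.2), a log2 ratio of -2.62 (-2.91 to -2.34). Gbp2 was 11.8 CPM and 2.52 CPM (log2 -2.23), and Irf7 9.68 CPM and 1.26 CPM (3 UMIs, log2 -2.94, -5.26 to -1.33). Irf1, at 79.4 CPM and 58.0 CPM, and Isg15, at 19.2 CPM and 9.66 CPM, lay between. The P180 cells fell into a cluster led by Ebf1 and Ighm with Vpreb3, a gene of developing B cells, where Cd274 was 11.4 CPM, and a cluster with Ms4a1 (CD20) among its leading genes, where Cd274 was 126 CPM. The latter alone against all B cell-like cells labelled E18.5, chosen after the data were seen, gave a log2 ratio of -1.15 (-1.47 to -0.85) for Cd274. Isg15 (log2 -0.99) sat at the threshold and was lower by 2-fold or more under 5 alternatives (-1.05 to -1.78). Markers of other cells were higher in the cells labelled P180. The 15 erythroid markers summed to 1009 CPM (5 at 0) and 31444 CPM (0 at 0), the 15 neutrophil markers to 95.6 CPM (3 at 0) and 609 CPM (1 at 0) and the 14 T cell markers to 37.3 CPM (2 at 0) and 466 CPM (6 at 0), with haemoglobin at 0.0926% and 3.08% of UMIs. Their part in the ratios was not tested.

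In dendritic-like cells, of 9 measured members 3 were higher by 2-fold or more under the P180 label, where 1.95% of 8314 genes were, 2 were lower, where 8.60% were, and 4 lay between. Ifi202b was 35.2 CPM and 174 CPM, a log2 ratio of 2.31 (2.04 to 2.58), and was found in 66 of 345 and 62 of 73 cells (19.1% and 84.9%). The median depth was 14342 and 23390 UMIs, and after thinning to 1000 UMIs the shares were 1.74% and 17.8%. Erythroid-like cells labelled P180, which should lack the gene, had a UMI in 0.0725% of cells. Gbp2 was 27.4 CPM and 64.0 CPM (log2 1.22), a call that ended under 5 alternatives, at 0.56 to 0.94. Cxcl10 was 67.8 CPM and 17.8 CPM (log2 -1.93), a direction that turned with no doublets left out (1.55) and with Scrublet's own threshold (1.06) and that lay within 2-fold under 3 more (-0.85 to -0.16). Cxcl9, the other lower member, was 123 CPM and 39.1 CPM (log2 -1.65). Of its UMIs, 203 of 644 under the E18.5 label and 44 of 66 under the P180 label came from 1 cell each. Without those cells the levels were 84.3 CPM and 13.2 CPM. Irf7 was 42.7 CPM and 80.6 CPM (log2 0.92). The 15 stress genes summed to 13731 and 11085 CPM in this class, with 2 lower and 13 between. The 14 T cell markers summed to 261 CPM (0 at 0) and 2.37 CPM (11 at 0). The 13 NK cell markers summed to 278 CPM (1 at 0) and 69.4 CPM (8 at 0). In the other direction, the 15 erythroid markers summed to 2328 and 4330 CPM and the 15 neutrophil markers to 93.7 and 497 CPM. The part of these markers in the ratios was not tested.

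A single cell accounts for much of what the members showed in dendritic-like cells labelled P180. All 68 Ifit3 UMIs of the class came from 1 of 73 cells, and the same cell held 42 of 95 Isg15 UMIs, 44 of 66 Cxcl9 UMIs, 25 Gbp2 UMIs, 25 Irf7 UMIs and 0 Cxcl10 UMIs. Its total of 25304 UMIs was 1.08 times the class median. It held 342 of the 2590 UMIs of the antiviral effector list in the class. With it, Ifit3 was 5.14 CPM and 40.3 CPM (log2 2.97). Without the top cell in each library no Ifit3 UMI was left under the P180 label, and the log2 ratio against 3 counts was a bound of -1.24, with the gene then under the 50-UMI minimum. Of 57 Cd274 UMIs, 36 came from another single cell. The log2 ratio of Cd274, -0.71 with all cells, was -1.82 without the top cells and -1.12 to -2.39 under 4 other alternatives, where the gene was lower by 2-fold or more.

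Mesenchymal-like cells had 1 measured member, Irf1. It was 50.3 CPM (21 UMIs over 93 cells) and 194 CPM (85 UMIs over 50 cells), a log2 ratio of 1.95 (1.25 to 2.71), where 23.6% of 2293 genes were higher by that margin. The share of cells with a UMI was 16.1% and 52.0%, and 4.35% and 17.8% after thinning. Of 11 stress genes measured in this class 8 were higher too, with sums of 1659 and 6517 CPM, the reverse of the order in neutrophil-, monocyte- and B cell-like cells; its part was not tested. The other 8 members were under 50 UMIs in both libraries, including Ifit3 with 10 and 21 UMIs and Cxcl9 with 0 and 0.

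In erythroid-like cells labelled P180 Isg15 had a UMI in more cells than any other member. It stood at 153 CPM (149 to 157), with 6698 UMIs in 1352 of 6894 cells (19.6%), and no other class of at least 50 cells in that library came above 77.8 CPM. The 17 NK cell-like cells, too few to be counted as a class, had 114 CPM (81.1 to 156). Irf7 stood at 9.63 CPM in erythroid-like cells. Ifit3 had 5 UMIs, Gbp2 4, Ifi202b 5, Irf1 14 and Cxcl9 0 over the same 6894 cells. Neutrophil-like cells of the same library had Isg15 at 11.0 CPM with a median of 16437 UMIs per cell, so the erythroid level was not shared by every class. The erythroid-like class labelled E18.5 was small, with 43 Isg15 UMIs in 10 of 24 cells (318 CPM, 230 to 429).

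Besides Isg15, the pathway genes that were higher in erythroid-like cells than in each of the 8 other classes of the library were Ube2l6, the conjugating enzyme for Isg15, at 938 CPM (94.1% of cells), Rsad2, the antiviral enzyme viperin, at 557 CPM (71.8%), Isg20, a nuclease, at 264 CPM (63.3%), and, narrowly, Cmpk2 at 25.3 CPM against 25.1 CPM. Of the 31 antiviral effectors, 8 were above the median of the 8 other classes in erythroid-like cells and 23 below it, and all 4 genes of Isg15 conjugation were above it. Of the 6 receptor genes, 6 were below it. Haemoglobin made up 63.8% of the UMIs of erythroid-like cells, which lowers the CPM of their other genes. The counts below the median therefore depend on the denominator, and the share of all genes below it was not counted. Genes above each of the 8 other classes were 1 of 9 members, 3 of 31 antiviral effectors and 1 of 4 Isg15 conjugation genes. No gene of the other pathway lists was above them all. The share of all genes that were highest in erythroid-like cells was not counted either. The interferon gamma receptor gene Ifngr1 had 1.26 CPM and the type I receptor gene Ifnar2 94.3 CPM. Across the 10 erythroid-like clusters Isg15 ranged from 59.2 CPM, in the Rrm2-led cluster with haemoglobin at 28.6% of UMIs, to 218 CPM in a cluster with haemoglobin at 75.6%. The proliferation gene Mki67 was 1683 CPM in the lowest cluster and 100.5 CPM in the highest. The order was not strict, since a cluster with Mki67 at 1136 CPM and haemoglobin at 66.0% had Isg15 at 167 CPM. Per 1000000 UMIs without haemoglobin, Isg15 ranged from 82.9 in the Rrm2-led cluster to 960.5 in the cluster with most haemoglobin (81.9% of UMIs), so the highest cluster changed with the denominator. Isg15 was uneven between cells: 126 of the 6894 cells held 50% of its UMIs.

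**Figure D4:**
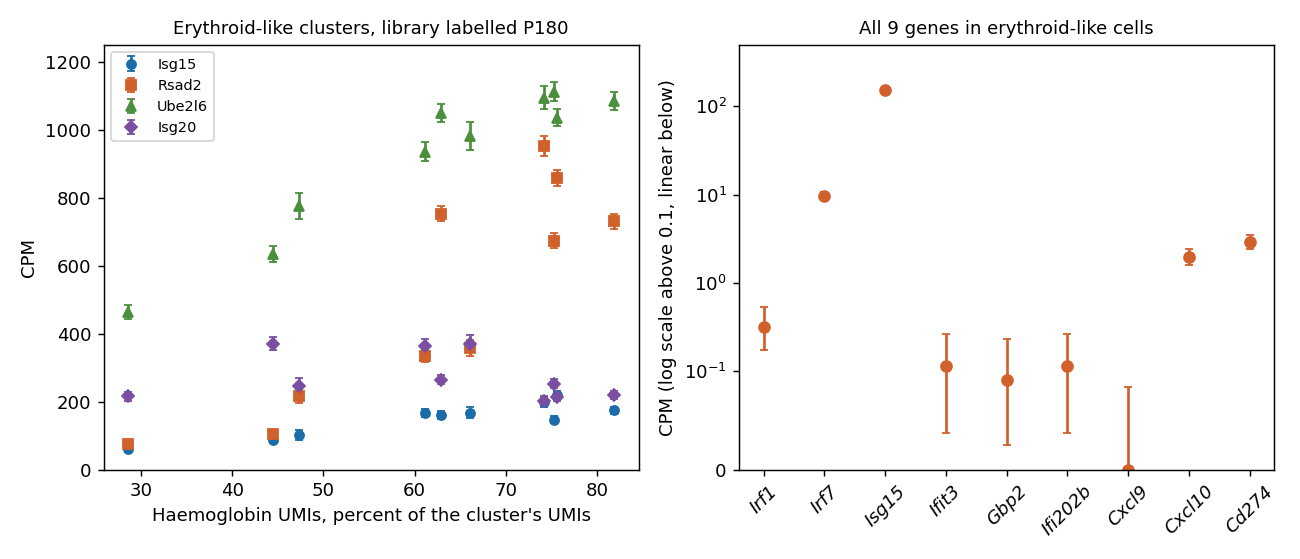
Left, CPM of Isg15, Rsad2, Ube2l6 and Isg20 in the 10 erythroid-like clusters labelled P180 against the share of haemoglobin UMIs in the cluster; right, CPM of the 9 genes in all erythroid-like cells (log scale above 0.1), both with 95% Poisson intervals. Isg15 rises from 59.2 CPM in the cluster with least haemoglobin to 146 CPM or more in the 7 clusters above 60% haemoglobin, and on the right Isg15 stands at 153 CPM and Cxcl9 at 0.

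Some members were found together in single cells. The counts are at 1000 UMIs per cell and are a description. Of 39 pairs found together in at least 5 cells of a class, a minimum that favours pairs above the product of their shares, 36 were above it and 3 below: Irf1 with Isg15 (22 cells against 23.9) and with Ifit3 (5 against 5.16) in neutrophil-like cells and Irf1 with Cd274 in B cell-like cells (16 against 17.3), all labelled E18.5. In monocyte-like cells labelled E18.5 Cxcl9 and Gbp2 were both found in 7 of 174 cells, where the product of their shares gives 0.977, and Cxcl9 and Cxcl10 in 7 where it gives 1.95. Cxcl9 and Cxcl10 were both found in 6 of 344 dendritic-like cells labelled E18.5, against 0.605. In T cell-like cells Isg15 and Cxcl10 were both found in 9 of 471 cells, against 1.40. In erythroid-like cells labelled P180 Irf7 and Isg15 were both found in 20 of 6443 cells, against 4.68. At least 3 of the 9 members were found in 10.3% of monocyte-like and 6.03% of neutrophil-like cells labelled E18.5, and in 0.794% and 0.285% of those labelled P180.

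The cytokine itself was seen for interferon gamma. Ifng was 443 CPM in T cell-like cells (36.7% of cells) and 519 CPM in NK cell-like cells (54.7%) labelled E18.5, and 1.54 CPM in B cell-like cells. In the library labelled P180 all 17 NK cell-like cells, too few for the comparisons above, had an Ifng UMI, at 1444 CPM, and neutrophil-like cells had 0 Ifng UMIs over 1065 cells. Of the type I genes, Ifnb1 reached 3.47 CPM (5 UMIs) in monocyte-like cells labelled E18.5 and 3.27 CPM (23 UMIs) in those labelled P180. Cxcr3, the receptor for Cxcl9 and Cxcl10, was 84.4 CPM in T cell-like and 73.2 CPM in NK cell-like cells labelled E18.5. Pdcd1, the receptor for the Cd274 product, was 19.2 CPM in those T cell-like cells.

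The receptors pass the signal to Jak kinases and Stat factors. Of 6 Jak-Stat genes, 6 were lower by 2-fold or more under the P180 label in B cell-like cells, 5 in neutrophil-like and 3 in monocyte-like cells, and none in dendritic- or endothelial-like cells, where all 6 lay between. Over all measured genes, the share lower by that margin was 18.2% in B cell-like, 18.1% in neutrophil-like and 9.04% in monocyte-like cells. It was 8.60% in dendritic-like and 10.1% in endothelial-like cells. The median log2 ratio of the list was -1.51 in B cell-like cells, where the median over all genes was 0.09, and -1.43 in neutrophil-like cells, where it was 0.46. In neutrophil-like cells 4 of 6 receptor genes were lower by 2-fold or more, namely Ifnar1, Ifnar2, Ifngr2 and Il10rb. The median log2 ratio of the receptors there was -1.39, against 0.46 over all genes. Of 5 receptor genes measured in monocyte-like cells 1 was lower, and of 5 measured in each of B cell-, dendritic- and endothelial-like cells none was. Ifngr1 lay between in neutrophil-like (131 CPM and 87.9 CPM), monocyte-like (273 CPM and 164 CPM) and endothelial-like cells (58.2 CPM and 35.3 CPM). Ifnar1 was lower in neutrophil-like cells (50.7 CPM and 9.36 CPM) and monocyte-like cells (66.6 CPM and 31.3 CPM) and higher in endothelial-like cells (44.7 CPM and 94.5 CPM).

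Further interferon-induced genes were counted by list. Over all measured genes, 18.1% were at least 2-fold lower in neutrophil-like, 9.04% in monocyte-like and 8.60% in dendritic-like cells. The share was 10.1% in endothelial-like and 18.2% in B cell-like cells. At least 2-fold higher were 35.8% of genes in neutrophil-like, 29.7% in monocyte-like and 1.95% in dendritic-like cells. In neutrophil-like cells 23 of 27 measured antiviral effectors were at least 2-fold lower and none was higher, with a median log2 ratio of -3.14 against 0.46 over all genes. In monocyte-like cells 15 of 22 were lower and 1, Ifitm1, was higher (median -1.47 against 0.44), and in dendritic-like cells 10 of 22 were lower and 1, Oasl1, was higher (median -0.64 against -0.01). Ifi27l2a, a small interferon-induced protein, was 1676 CPM and 66.9 CPM in neutrophil-like cells, and Ifitm3, a block to viral entry, was 3698 CPM and 888 CPM in monocyte-like cells. In endothelial-like cells 11 of 12 guanylate-binding and immunity-related GTPases were lower (median -2.48 against 0.02), among them Iigp1, as were 6 of 7 genes of the p200 family. In B cell-like cells all 8 measured p200 genes and 7 of 8 GTPases were lower. Of 15 antiviral effectors there 10 were lower and 2, Rsad2 and Ifitm2, were higher, where 23.4% of all genes were higher. In dendritic-like cells 4 of 8 GTPases were lower and none was higher. Of 8 p200 genes in dendritic-like cells none was lower and 2, Ifi204 and Ifi211, were higher. Ube2l6 was higher in neutrophil-, B cell-, endothelial- and mesenchymal-like cells labelled P180, but not by 2-fold in dendritic- or monocyte-like cells. Erythroid-like cells of that library carry it at 938 CPM, and their part in these ratios was not tested.

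Genes whose levels ran most like those of each member were sought over 21 units, each a class of at least 50 cells in 1 library. These units share libraries and depth, so the values are descriptions. Of 8752 genes, Stat3 was most like Irf1 (Pearson r = 0.91 on log2 of CPM plus 10) and Dusp1, a gene of the stress list, most like Irf7 (0.86). The gene most like Isg15 was AW011738 (0.85), and Il13ra1 came first for Ifit3 (0.84), followed by Oasl2 (0.83). For Gbp2 the genes were Gm34455 (0.86) and Trim30d (0.85), and for Cd274 Cytip and Zc3h12a (0.86 and 0.85). Cxcl9 ran most like Ifi207 (0.89), Cxcl10 like Fam129a (0.79) and Zbp1 (0.77), and Ifi202b like Tifab (0.91) and Ifi211 (0.89).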

How the data were processed

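Droplet-based 3′ v3 libraries were made from 2 livers, per the labels' protocols. The authors deposited raw UMI counts per gene and barcode, which per the file headers come from Cell Ranger 7.1.0. The submitters' processing notes name fastp, Trimmomatic, Seurat, edgeR and mm10; for their roles, the strand setting and whether intronic reads were counted, nothing is given in the sources used here. In all, the libraries held 9871 barcodes with 37709972 UMIs (E18.5 label) and 9771 with 90128038 (P180 label).

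Kept barcodes had a minimum of 200 genes and 500 UMIs and a mitochondrial share below 25%, and the highest Scrublet scores (scanpy 1.11.5) were left out at 0.8% per 1000 barcodes, which removed 178 and 735. Scrublet's own threshold marked 89 and 0. Each library was clustered alone (2000 variable genes without 126 interferon genes, 30 components, 15 neighbours, Leiden resolution 1, leidenalg 0.10.2) and clusters were named from 17 marker sets. A cluster with more leading markers of another class is named by its first genes. Python 3.11.15, numpy 2.4.6 and scipy 1.17.1 were used. The ratio and naming steps were tested on simulated data drawn from the class sums themselves, with no variation between cells of a class except depth. Such data cannot show how the steps fare where single cells hold much of a gene's UMIs.

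Counts were summed per class and scaled to CPM. Intervals are exact Poisson, Clopper-Pearson or conditional, at 95%, and molecules of 1 cell are not independent samples of the condition. A count of 0 is limited by 3 counts over the class. With 1 library per stage no test was possible. The members, lists and markers were chosen with earlier results of these data known. Named genes are the 9 members, the receptors and Jak-Stat genes, and at most 3 genes of highest level in each other list; other genes, such as Oasl1, Ifitm1, Oas1a, Bst2, Cmpk2 and Mki67, are named where a count or result turns on them, after their values were seen. For each member the genes of most like pattern are among the 3 with the largest r. Limits to 1 cluster were chosen after seeing the data. Genes of the lists without a row, such as Mx1 and Cxcl11, are not analysed here.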

Additional observations from a re-analysis of the deposited data

Results flagged for a closer look

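Irf1, Ifit3 and Gbp2 differed in opposite directions between the libraries in different classes, each by at least 2-fold with an interval past 0. The difference between classes was not tested. For Irf1 the log2 ratio of the library labelled P180 over that labelled E18.5 was 1.95 in mesenchymal-like cells, -1.50 in monocyte-like cells and -3.53 in neutrophil-like cells. The summed stress genes had the same signs in these 3 classes. For Ifit3 it was 2.97 in dendritic-like cells, all from 1 cell of that class, -1.18 in endothelial-like cells and -6.19 in neutrophil-like cells. For Gbp2 it was 1.22 in dendritic-like cells, where 25 of 108 UMIs came from the same cell and the ratio was within 2-fold under 5 alternatives (0.56 to 0.94). In the other classes Gbp2 stood at -2.23 in B cell-like, -4.11 in endothelial-like, -2.95 in monocyte-like (-0.06 at a clustering resolution of 2) and -6.61 in neutrophil-like cells.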

How the results depend on the processing

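The count of lower pairs, 23, ranged from 19 to 27 under the other filters, resolutions, scalings and minimums, except at a minimum of 200 UMIs, where it was 15 of 25 measured pairs, since fewer pairs pass. The count of higher pairs, 5, was 2 at a mitochondrial limit of 10%, 3 without that limit, 1 at a minimum of 200 UMIs and 3 without the cell with most UMIs of the member in each library. Of 469 single ratios under all alternatives, 404 lay within the counting interval of the reported value, 61 moved outside it and 4 changed sign. Those were Ifit3 in dendritic-like cells without its top cells (-1.24), Ifi202b in neutrophil-like cells at the 10% limit (-0.28), and Cxcl10 in dendritic-like cells with Scrublet's own threshold (1.06) or with no doublets left out (1.55). The cause of the last 3 was not tested. The 2 limits to 1 cluster, of neutrophil-like and of B cell-like cells labelled P180, were chosen after seeing the data and gave 21 and 24 lower and 4 and 5 higher pairs. At a resolution of 0.5 the monocyte-like class of the library labelled P180 was not formed, and at the 10% limit mesenchymal-like cells were under 50, so neither gave ratios there. No paired analysis was possible because each stage has 1 library. Depth limits the classes labelled P180 with fewest UMIs, mesenchymal- and endothelial-like cells, where a count of 0 allows up to 6.86 and 4.81 CPM.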
